A study of Mus musculus with 7 samples.

Results

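Oxidative phosphorylation in mitochondria is carried out by 5 protein complexes of the inner membrane. Complexes I (NADH dehydrogenase) and II (succinate dehydrogenase) feed electrons to coenzyme Q, complex III (cytochrome bc1) passes them to cytochrome c, complex IV (cytochrome c oxidase) hands them to oxygen, and complex V (ATP synthase) uses the resulting proton gradient to make ATP. A small part of the subunits is encoded in the mitochondrial genome and the others in the nucleus. Heart muscle depends on this pathway for most of its ATP, and it uses muscle-specific forms of several complex IV subunits. The genes described here are nuclear genes of these complexes. They were chosen by symbol, as the protein-coding rows of the deposited count table that begin with Nduf followed by a, b, c, s or v, that are named Sdha to Sdhd, or that begin with Uqcr, Cox4 to Cox8, or Atp5. The rule found 40 of the 20343 genes in the table, among 9843 that are protein-coding. They comprised 16 subunits of complex I, 2 of complex II, 2 of complex III, 10 of complex IV and 6 of complex V. The 4 remaining genes, Ndufaf1, Ndufaf4, Ndufaf5 and Ndufaf6, share the symbol pattern but encode assembly factors of complex I, which are not part of the finished complex, and are described apart. Ndufa4 was counted in complex IV, where its protein is now assigned, although its symbol names complex I.

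The tissue was the apex of the heart muscle, from which polyadenylated RNA of 7 animals was sequenced. The strain, NSG-DR1 (strain label NSG-DRB1*0101), is an immunodeficient strain without T, B and natural killer cells of its own that carries a human HLA-DR1 transgene. No treatment was given to 4 control mice. In 3 transferred mice, tissue was collected 6 weeks after injection of CD4+ T cells of human origin. The sources used here give neither the age nor the sex of the mice, and no control received other cells or a mock transfer, so the transfer procedure and the T cells cannot be told apart.

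The rows analysed lie on chromosomes 1 to 7 and on the first part of chromosome 8. Respiratory chain genes on other chromosomes and those of the mitochondrial genome are not analysed here, so each complex is represented by a part of its subunits. Of the 40 genes, 9 lay on chromosome 7 and 8 on chromosome 2. Column totals over this part of the genome were between 16402194 and 25190580 counts. Levels are given as CPM, the usual read count corrected for depth, taken over these totals and scaled by TMM (trimmed mean of M values). Among cell type markers, the summed level of 13 tested cardiomyocyte genes was 120459 to 137128 CPM in control hearts and 116077 to 148016 CPM in transferred hearts, and 0 of these genes passed the threshold of the edgeR test. The 7 tested macrophage markers summed to 391 to 572 CPM in control hearts and 707 to 1007 CPM in transferred hearts, and for each of the 7 the lowest transferred heart was above the highest control heart, which held for 5.99% of all tested genes. The part of this difference in the results below was not tested. In tissue RNA, fewer cells of a type and less RNA per cell cannot be told apart.

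All 40 genes passed the filter on low counts. Together they took from 4.69% to 5.40% of the counts of a heart. Levels between genes were compared as CPM per kilobase of exon, because these messages are short, with a median exon length of 772.5 bases against 3288 bases over all 7667 tested genes. The median level of the 36 subunits was 1239 CPM per kilobase, against 7.96 CPM per kilobase over all tested genes. Of the 36 subunits, 33 were among the 500 tested genes with the highest level per kilobase. The exceptions were 3 genes of complex IV, Cox4i2, Cox6b2 and Cox7b2. Among control hearts the median coefficient of variation of the 40 genes in CPM was 4.62%, against 11.1% over all tested genes, a measure that also depends on the level.

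**Figure D1:**
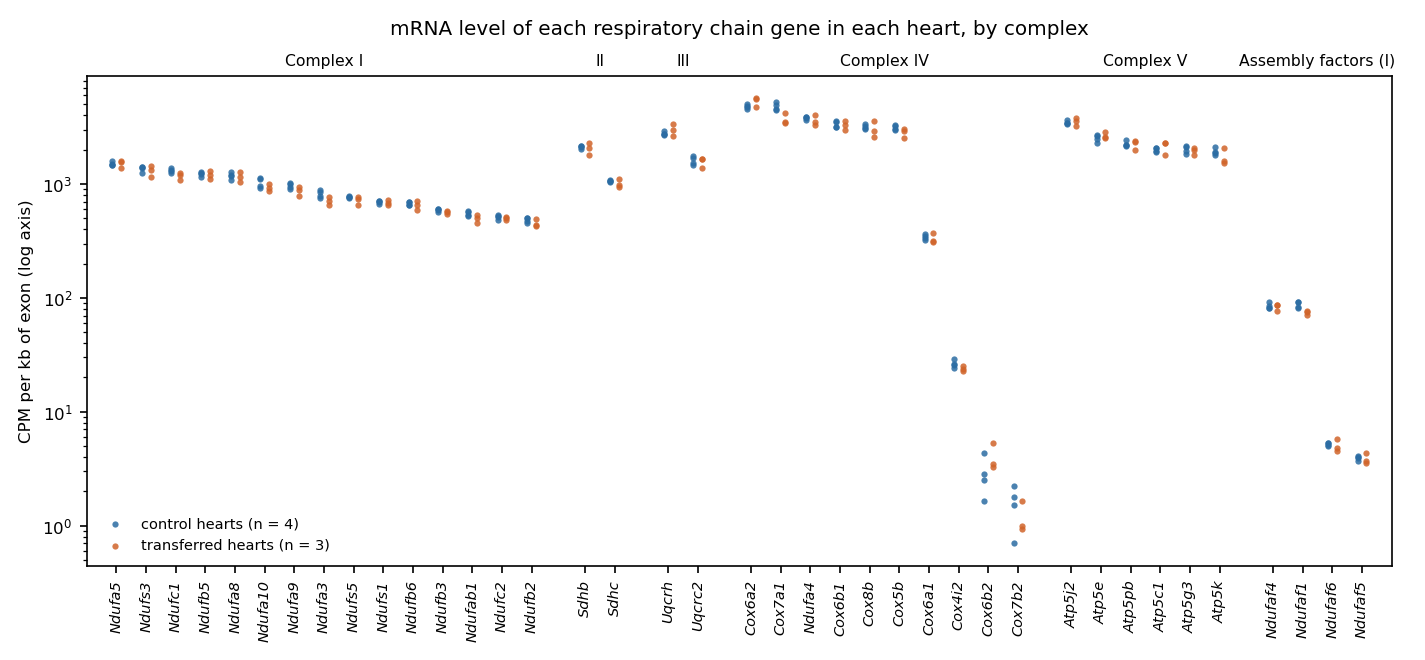
Level of 39 of the 40 genes in CPM per kilobase of exon (log axis) in the 4 control hearts (blue) and the 3 transferred hearts (orange), grouped by complex and sorted by level. Complex IV spans the widest range, from Cox6a2 at 5023 to Cox7b2 at 1.40 CPM per kilobase, and the points of the 2 groups lie close together for nearly all genes.

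Subunits of the same complex differed in level. In complex I the mean over the 7 hearts was highest for Ndufa5, an accessory subunit of the arm that faces the matrix, at 1506 CPM per kilobase, and lowest for Ndufb2 of the membrane arm at 469 CPM per kilobase, a ratio of 3.21. In complex II the iron-sulfur subunit Sdhb was at 2082 and the membrane anchor Sdhc at 1043 CPM per kilobase. In complex III the hinge protein Uqcrh, which helps cytochrome c to dock, was at 2876 and the core protein Uqcrc2 at 1592 CPM per kilobase. The 6 genes of complex V lay between 1842 CPM per kilobase for Atp5k (subunit e) and 3480 CPM per kilobase for Atp5j2 (subunit f), a ratio of 1.89.

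In complex IV, a muscle form and a common form of the same subunit could be compared for subunit 6A alone, and the common partners of Cox7a1, Cox8b and Cox4i2 are not analysed here. Cox6a2, the heart and skeletal muscle form of subunit 6A, had a mean of 5023 CPM per kilobase over the 7 hearts, rank 8 among the 7667 tested genes. This was the highest of the 40 genes, but in the control hearts alone it was level with Cox7a1, at means of 4796 and 4798 CPM per kilobase. Cox6a1, the form found in most other tissues, was at 339 CPM per kilobase. Cox7a1 and Cox8b, the muscle forms of subunits 7A and 8, were at 4340 and 3114 CPM per kilobase. Cox6b1, the common form of subunit 6B, was at 3318 CPM per kilobase, while Cox6b2, best known from testis, was at 3.34 CPM per kilobase. Cox4i2, a form of subunit 4 known from lung and from oxygen-responsive tissue, was at 25.4 CPM per kilobase, and Cox7b2, also best known from testis, was at 1.40 CPM per kilobase.

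The comparison of transferred with control hearts asked whether these messages differed after T cell transfer. Of the 40 genes, 0 passed an adjusted p-value of 0.05 in the edgeR quasi-likelihood test with Benjamini-Hochberg adjustment over all tested genes, where 0.235% of all tested genes did (0.104% lower and 0.13% higher). DESeq2 called 1 of the 40, Cox7a1, where it called 2.99% of all genes to which it gave an adjusted p-value. With limma-voom 0 of the 40 passed, and 0 of all 7667 tested genes did. At an unadjusted p-value under 0.05 in the edgeR test there were 3, against 12.4% of all tested genes in either direction. They were all lower in transferred hearts (Cox7a1, Ndufaf1 and Ndufa3), where 5.27% of all tested genes were lower by this measure, and 0 were higher, where 7.17% of all tested genes were. In 3 genes (Cox7a1, Ndufaf1 and Ndufc1) every transferred heart lay below every control heart, against 5.22% of all tested genes, and in 0 genes every transferred heart lay above, against 5.99%. The counts of the 40 genes were thus near the background.

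The sizes of difference that the data allow were small. The 95% interval of the log2 fold change lay within 1.5-fold in either direction for 37 of the 40 genes, where 61.8% of all tested genes had such an interval. The 3 others were Cox7a1, whose interval ran from -0.59 to -0.14, and the nearly silent Cox6b2 and Cox7b2. The sign was negative for 33 of the 40 genes, where 50.3% of all tested genes had a negative sign, and the median log2 fold change was -0.054, against -0.0020 over all tested genes. This lean rested in large part on a single heart. Without transferred heart 3 the median was -0.015 and 21 genes had a negative sign, and without transferred heart 2 the median was -0.088.

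**Figure D2:**
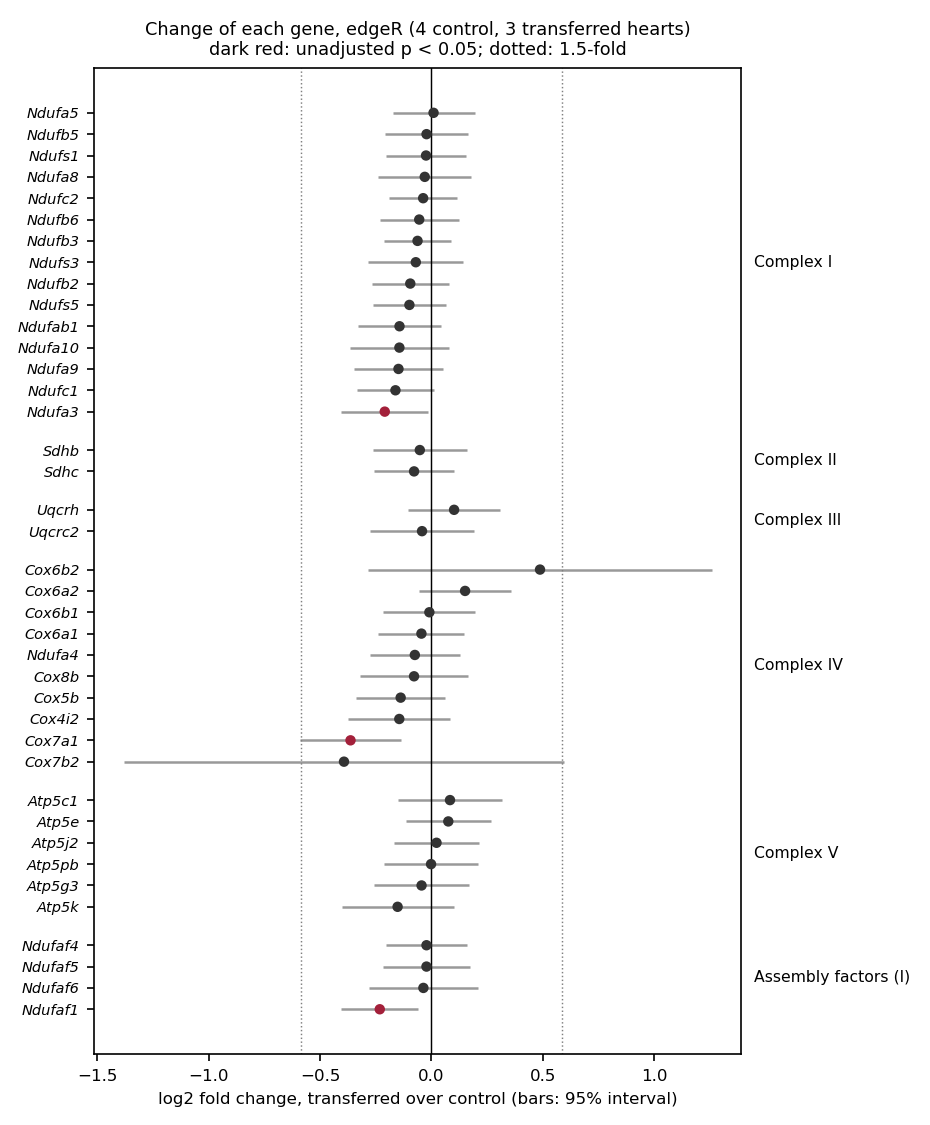
Log2 fold change of 39 of the 40 genes, transferred over control, with its 95% interval from the edgeR fit (4 control and 3 transferred hearts), grouped by complex. Dotted lines mark 1.5-fold, and dark red points mark the 3 genes with an unadjusted p-value under 0.05. Most points lie slightly left of 0 with intervals that include it.

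By complex, the median log2 fold change was -0.079 for complex I (15 of 16 genes below 0), -0.065 for complex II (2 of 2), 0.030 for complex III (1 of 2), -0.076 for complex IV (8 of 10) and 0.010 for complex V (3 of 6). It was -0.029 for the assembly factors (4 of 4). Single hearts moved the medians of the 5 complexes by more than 1.5 times or turned their sign. Without transferred heart 3 they were -0.031, 0.00029, 0.11, -0.054 and 0.079 for complexes I to V, and without transferred heart 2 they were -0.12, -0.14, -0.033, -0.13 and -0.034. Summed over its subunits, complex I was at 17005, 17663, 16372 and 17331 CPM in control hearts 1 to 4 and at 16710, 16740 and 14984 CPM in transferred hearts 1 to 3. The groups overlapped, and transferred heart 3 was the lowest of the 7. Complex V was at 13161, 13519, 12648 and 13000 CPM in the control hearts and at 13651, 14140 and 11827 CPM in the transferred hearts. Here transferred hearts 1 and 2 were the highest of the 7 and transferred heart 3 the lowest. The summed level differed by -5.54% for complex I, -4.20% for complex II, 0.510% for complex III, -3.29% for complex IV and 0.948% for complex V, and in each of these 5 complexes the groups overlapped.

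The transferred hearts were unlike each other. Of the 40 genes, 26 had their lowest level in transferred heart 3, 6 in transferred heart 1 and 3 in transferred heart 2. The highest level was in transferred heart 2 for 11 genes, in control heart 2 for 10 and in transferred heart 1 for 8. The shares over all tested genes were not computed for these counts. The median deviation of the 40 genes from the control mean was -0.039, 0.0052 and -0.17 on the log2 scale in transferred hearts 1, 2 and 3, and it lay between -0.046 and 0.056 in the control hearts. Which heart had the lowest median depended on the scaling, which moves all genes of a heart by the same amount. The place of the 40 genes relative to all tested genes in a heart therefore stays the same. Under TMM the median of all tested genes was -0.0061, -0.0021 and -0.00037 in transferred hearts 1, 2 and 3. With factors taken from the cardiomyocyte markers in place of all genes, the median deviation of the 40 genes was -0.20, -0.0024 and -0.028 in these hearts. This scaling moved the median of all tested genes to -0.16, -0.0098 and 0.14 in these hearts. With total counts the median deviation of the 40 genes was -0.12, 0.057 and -0.093, and that of all tested genes was -0.087, 0.049 and 0.072. The mouse identifiers have 2 forms, with letters in the first heart of each group and with digits only in the 5 others. Between the 2 hearts with letters the median log2 ratio of the 40 genes was -0.025 and 23 were below 0. Between the 3 control and 2 transferred hearts with numbers it was -0.080 and 32 were below 0, and 19 genes were below 0 in both. For these counts too the shares over all tested genes were not computed. The labels do not call this form a batch. The median deviation of the cardiomyocyte markers themselves under TMM was 0.23, -0.0080 and -0.12 in transferred hearts 1, 2 and 3.

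**Figure D3:**
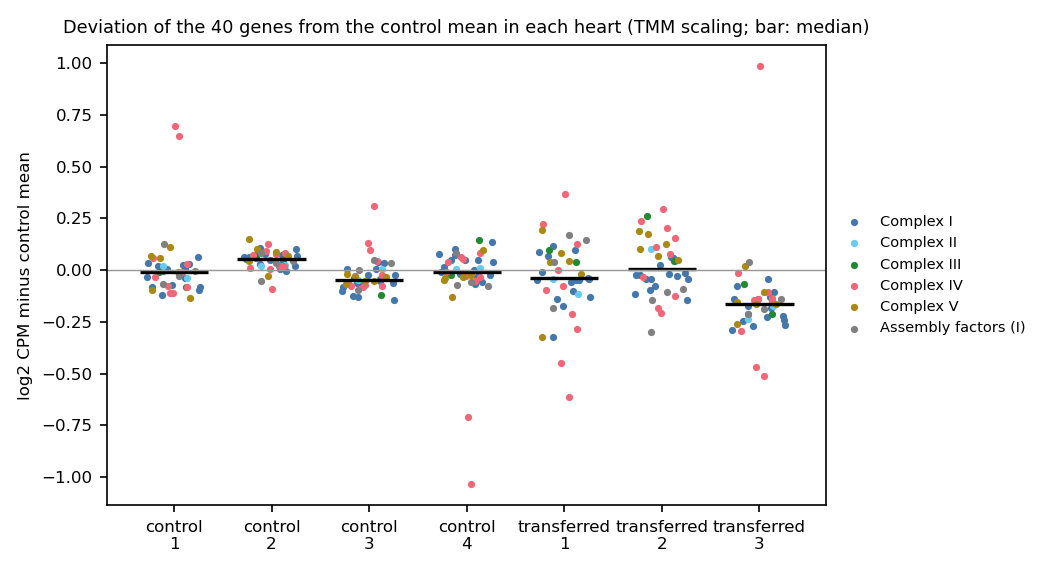
Deviation of each of the 40 genes from its control mean, in log2 CPM with TMM scaling, for each heart. Points are genes coloured by complex and black bars are medians. The median of transferred heart 3 is -0.17, below those of the other 6 hearts, and the widest points are the low-count genes Cox6b2 and Cox7b2.

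In complex I, Ndufa3, a small accessory subunit of the membrane arm, had the smallest p-value. It was at 396, 463, 411 and 453 CPM in control hearts 1 to 4 and at 344, 402 and 372 CPM in transferred hearts 1 to 3. Transferred heart 2 lay just above control heart 1, so the groups overlapped. The log2 fold change was -0.21 with a standard error of 0.087 (edgeR adjusted p = 0.368). Ndufc1, another membrane arm subunit, was included because its groups did not overlap. It was at 547, 574, 520 and 537 CPM in control hearts and at 495, 515 and 451 CPM in transferred hearts, and its log2 fold change was -0.16 (edgeR adjusted p = 0.433). The gap between the groups was narrow, 515 against 520 CPM. Ndufa5, the most abundant subunit per kilobase, was at 936, 982, 905 and 912 CPM against 997, 971 and 852 CPM, and its log2 fold change was 0.0094 with a 95% interval from -0.17 to 0.19. The core subunits Ndufs1 and Ndufs3 of the matrix arm had log2 fold changes of -0.024 and -0.070. Ndufab1, the mitochondrial acyl carrier protein that also serves fatty acid synthesis, had a value of -0.14.

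Ndufc2 is a neighbour of Thrsp, a lipogenic regulator that passed the threshold in the same fit. On chromosome 7 (GRCm38) Ndufc2 spans 97400003 to 97407800 on the plus strand, and Thrsp lies on the minus strand with its nearer end, the 3′ end, 5133 bases further on. The log2 fold change was -1.11 for Thrsp (edgeR adjusted p = 0.0384) and -0.037 for Ndufc2 (edgeR adjusted p = 0.870). The call of Thrsp was lost with the form of the mouse identifier as a covariate, in the hearts with numeric identifiers alone, with limma-voom, and without control heart 1, 2 or 4 or transferred heart 2. In each of these fits 0 of all tested genes passed. The 95% interval of Ndufc2 ran from -0.19 to 0.11.

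Among the assembly factors, Ndufaf1, which helps to build the membrane arm of complex I, had the smallest p-value. It was at 126, 140, 124 and 140 CPM in control hearts and at 117, 108 and 114 CPM in transferred hearts. All 3 transferred hearts were below all 4 control hearts. The log2 fold change was -0.23 with a standard error of 0.077 (edgeR adjusted p = 0.264). By identifier form the log2 ratio was -0.11 with letters and -0.28 with numbers. The 3 other assembly factors, Ndufaf4, Ndufaf5 and Ndufaf6, had log2 fold changes between -0.036 and -0.022.

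In complex II, Sdhc was at 1344, 1405, 1386 and 1390 CPM in control hearts and at 1276, 1426 and 1224 CPM in transferred hearts. Sdhb was at 2313, 2314, 2207 and 2293 CPM against 2211, 2451 and 1938 CPM. For both genes transferred heart 2 was the highest of the 7 hearts and transferred heart 3 the lowest, and the log2 fold changes were -0.078 and -0.052 (edgeR adjusted p = 0.757 and 0.869). In complex III, Uqcrh was at 1511, 1601, 1481 and 1497 CPM in control hearts and at 1629, 1821 and 1451 CPM in transferred hearts. Transferred hearts 1 and 2 lay above the control hearts and transferred heart 3 below them, so the log2 fold change of 0.10 had an interval from -0.11 to 0.31. Uqcrc2 had a log2 fold change of -0.042.

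Cox7a1 of complex IV stood out among the 40 genes by its p-value. Its protein replaces the more widespread form of subunit 7A in heart and skeletal muscle. The gene lies on chromosome 7 (GRCm38), positions 30184171 to 30186030 on the plus strand, and its counts were taken over 366 bases of exon. It was at 1625, 1913, 1669 and 1817 CPM in control hearts and at 1284, 1544 and 1268 CPM in transferred hearts. Every transferred heart was below every control heart. The mean was 1756 ± 133 CPM (SD, n = 4) against 1365 ± 155 CPM (SD, n = 3). The log2 fold change was -0.36 with a standard error of 0.10, a difference of -22.3%, with an edgeR adjusted p of 0.183, which does not pass the threshold. By p-value the gene ranked 221 among the 7667 tested genes. DESeq2 gave a log2 fold change of -0.36 with an adjusted p of 0.0316. The edgeR fits that each left out 1 heart gave values from -0.46 to -0.31. None passed the threshold, and 4 of these 7 fits called no gene at all. The log2 ratio was -0.34 between the 2 hearts with letters and -0.36 between the means of the 3 control and 2 transferred hearts with numbers. Fractional values were present for Cox7a1 in 4 of 7 hearts.

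The other muscle forms were Cox6a2 and Cox8b. Cox6a2 was at 3291, 3186, 3023 and 3142 CPM in control hearts and at 3685, 3718 and 3124 CPM in transferred hearts. Transferred hearts 1 and 2 lay above all control hearts and transferred heart 3 among them, and the log2 fold change was 0.15 with an interval from -0.05 to 0.36 (edgeR adjusted p = 0.559). Cox8b was at 1179, 1223, 1095 and 1129 CPM against 948, 1286 and 1053 CPM. Transferred hearts 1 and 3 lay below all control hearts and transferred heart 2 was the highest of the 7. Its log2 fold change was -0.078 (edgeR adjusted p = 0.831), with an interval from -0.32 to 0.16 that overlaps that of Cox7a1. No test of the difference between these genes was made.

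Within a heart, the ratio of Cox7a1 to Cox6a2 does not depend on scaling. In CPM per kilobase it was 0.889, 1.08, 0.994 and 1.04 in control hearts 1 to 4 and 0.628, 0.748 and 0.731 in transferred hearts 1 to 3. Each transferred heart lay below each control heart. This pair was chosen after its values were seen, so the ratio is given as a description. Of the summed level per kilobase of the 10 complex IV genes, Cox7a1 made up 19.3% to 21.3% in control hearts and 16.2% to 17.3% in transferred hearts, and Cox6a2 made up 19.7% to 21.7% and 23.1% to 25.8%. The ratio of Cox6a2 to its common form Cox6a1 was 15.4, 13.9, 13.6 and 13.1 in control hearts and 14.9, 17.9 and 15.3 in transferred hearts, and the groups overlapped.

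**Figure D4:**
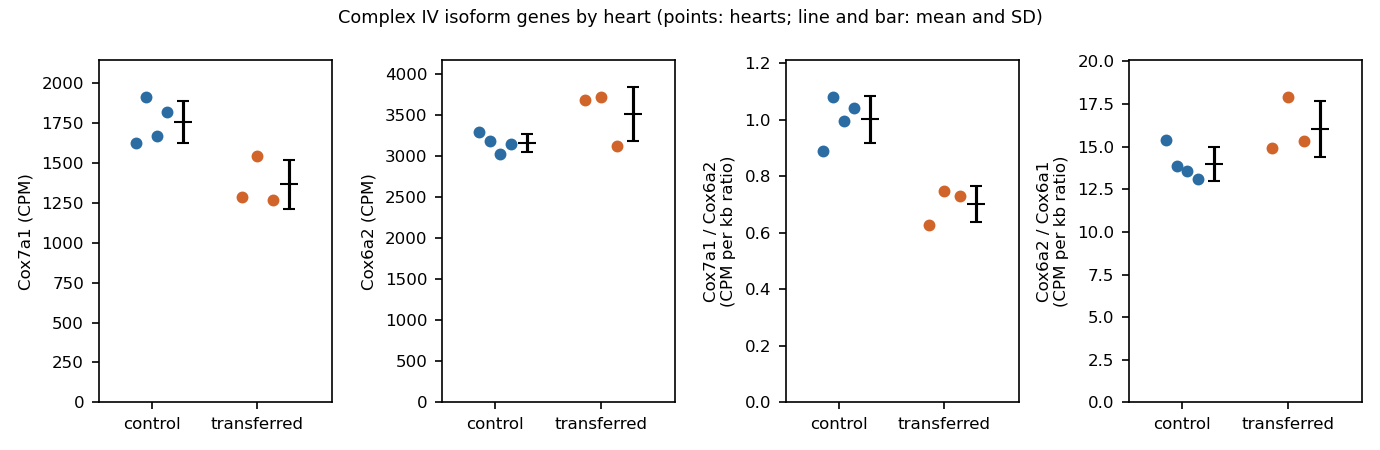
Levels of Cox7a1 and Cox6a2 in CPM and 2 ratios of levels per kilobase, for each of the 4 control hearts (blue) and 3 transferred hearts (orange), with the mean and SD beside the points. The Cox7a1 level and the ratio of Cox7a1 to Cox6a2 do not overlap between the groups, while Cox6a2 and the ratio of Cox6a2 to Cox6a1 do.

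Among the common forms, Cox6a1 was at 175, 187, 182 and 195 CPM in control hearts and at 202, 169 and 166 CPM in transferred hearts. The groups overlapped, and the log2 fold change was -0.045. Cox6b1 was at 1485, 1668, 1480 and 1635 CPM against 1565, 1692 and 1414 CPM, with a log2 fold change of -0.0094 and an interval from -0.22 to 0.20. Its sign flipped to 0.0069 with total count scaling. Ndufa4 was at 1874, 1910, 1943 and 1817 CPM against 1627, 1992 and 1754 CPM. Here transferred heart 2 was again the highest, and the log2 fold change was -0.075. Cox5b, a zinc-binding subunit, had a log2 fold change of -0.14 with an interval from -0.34 to 0.06.

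The rare forms gave little information. Cox4i2 was at 20.1, 21.8, 23.8 and 21.3 CPM in control hearts and at 20.6, 18.8 and 19.7 CPM in transferred hearts, and the log2 fold change was -0.14 (edgeR adjusted p = 0.625). By identifier form the log2 ratio was 0.031 with letters and -0.21 with numbers. The span of Cox4i2 overlaps that of Bcl2l1 on the other strand. Cox6b2 was at 2.67, 1.55, 1.77 and 1.01 CPM against 2.13, 2.02 and 3.26 CPM, from 16 to 66 counts in a heart. By identifier form its log2 ratio was -0.33 with letters and 0.87 with numbers. Its log2 fold change of 0.49 had an interval from -0.28 to 1.26, so a difference of this size could not be told from 0 in these hearts. The coefficient of variation of Cox6b2 among control hearts was 39.6%, and the parts of depth and of spread between hearts were not tested. Cox7b2 had 6 to 25 counts in a heart, and its interval ran from -1.38 to 0.60.

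In complex V, Atp5k, a membrane subunit that takes part in pairing of ATP synthase, had the smallest p-value. It was at 574, 683, 607 and 599 CPM in control hearts and at 491, 659 and 513 CPM in transferred hearts. Transferred hearts 1 and 3 were below the control hearts and transferred heart 2 was among them, and the log2 fold change was -0.15 (edgeR adjusted p = 0.640). Atp5j2 was at 1467, 1568, 1427 and 1455 CPM against 1523, 1611 and 1374 CPM, with a log2 fold change of 0.023. The central stalk subunits Atp5c1 (gamma) and Atp5e (epsilon) had log2 fold changes of 0.083 and 0.076, the peripheral stalk subunit Atp5pb -0.0018, and Atp5g3, a gene for the membrane ring, -0.044. All 6 intervals of complex V included 0.

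Counting could mix some of these genes with near-identical copies. Of the 40 genes, 24 had a fractional value in at least 1 heart, and 16 had whole values in all hearts. Pseudogenes of respiratory genes also held reads in the table. Ndufa12-ps had 7144 to 10387 counts in a heart, Ndufab1-ps 3255 to 5334 and Atp5l-ps1 1251 to 3175. Reads of a parent gene and its copy cannot be told apart with certainty here, and Ndufab1 is the parent among these that belongs to the 40 genes. Uqcrh overlaps the pseudogene Gm12854, which had 368 to 622 counts in a heart.

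The surrounding pathway was described with lists of genes. Of 23 tested assembly factors of the complexes, including the 4 Ndufaf genes above, 0 passed the threshold of the edgeR test over all genes, and 2 had an unadjusted p-value under 0.05, both lower, against 5.27% of all tested genes. The median log2 fold change was -0.086, and 20 of 23 were below 0, against 50.3% of all tested genes. In 4 of the 23 every transferred heart lay below every control heart, against 5.22% of all tested genes. In 0 of the 23 every transferred heart lay above, against 5.99%. Sdhaf4, an assembly factor of complex II, was at 86.4, 88.8, 89.4 and 93.6 CPM in control hearts and at 76.4, 79.0 and 75.7 CPM in transferred hearts. The groups did not overlap, and the log2 fold change was -0.22 (edgeR adjusted p = 0.227). Acad9, which works with Ndufaf1 in complex I assembly, differed by -0.17 on the log2 scale (edgeR adjusted p = 0.491).

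Of 14 tested genes for electron carriers and coenzyme Q synthesis, 0 passed and 3 had an unadjusted edgeR p-value under 0.05, all 3 lower, against 5.27% of all tested genes. They were Coq4 and Coq5 of coenzyme Q synthesis and Etfdh, which passes electrons from fatty acid oxidation to coenzyme Q. In these 3 of the 14 every transferred heart lay below every control heart, against 5.22% of all tested genes. In 0 of the 14 every transferred heart lay above, against 5.99%. Coq5 was at 346, 380, 378 and 366 CPM in control hearts and at 326, 327 and 327 CPM in transferred hearts. Its transferred hearts were almost equal and below all control hearts, and the log2 fold change was -0.17 (edgeR adjusted p = 0.343). The log2 fold change was -0.27 for Coq4 (edgeR adjusted p = 0.307) and -0.17 for Etfdh (edgeR adjusted p = 0.385). Cycs, the gene for cytochrome c, had a log2 fold change of -0.032.

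Of 11 tested genes of the tricarboxylic acid cycle and pyruvate entry, 0 passed, 1 had an unadjusted edgeR p-value under 0.05 and was lower, and 0 were higher. A count of 1 in 11 is near the 5.27% of all tested genes that were lower by this measure. The gene was Pdhx, which binds the E3 enzyme into the pyruvate dehydrogenase complex. It was at 472, 504, 468 and 527 CPM in control hearts and at 422, 416 and 376 CPM in transferred hearts. The groups did not overlap, and the log2 fold change was -0.28 (edgeR adjusted p = 0.178). In 3 of the 11 genes, Pdhx included, every transferred heart lay below every control heart, against 5.22% of all tested genes. In 0 of the 11 every transferred heart lay above, against 5.99%. Pdp1, a pyruvate dehydrogenase phosphatase, and Idh2, the NADP-dependent isocitrate dehydrogenase of mitochondria, had log2 fold changes of 0.19 and 0.20 (edgeR adjusted p = 0.437 and 0.499).

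Of 11 tested regulators of respiratory gene expression, 0 passed, 1 had an unadjusted edgeR p-value under 0.05 and was higher, and 0 were lower. This count is near the share over all tested genes, 7.17% higher. The gene, Ppargc1a, encodes PGC-1 alpha, a coactivator that drives mitochondrial gene expression. It was at 207, 199, 206 and 206 CPM in control hearts and at 233, 307 and 255 CPM in transferred hearts. Each transferred heart was above each control heart, and the log2 fold change was 0.37 with a standard error of 0.093 (edgeR adjusted p = 0.143). Polg, the mitochondrial DNA polymerase, and Sirt3, a mitochondrial deacylase, had log2 fold changes of -0.21 and -0.13 (edgeR adjusted p = 0.485 and 0.554).

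Of 13 tested genes for inner membrane transport and cristae, 0 passed. At an unadjusted edgeR p-value under 0.05 there was 1 higher and 1 lower, near the shares of 7.17% and 5.27% over all tested genes. In 2 of the 13 every transferred heart lay below every control heart, against 5.22% of all tested genes. In 1 every transferred heart lay above, against 5.99%. Atpif1, the inhibitor protein that stops ATP synthase from running backwards, was at 357, 328, 342 and 275 CPM in control hearts and at 439, 446 and 402 CPM in transferred hearts. The groups did not overlap, and the log2 fold change was 0.40 with a standard error of 0.097 (edgeR adjusted p = 0.128). Ucp3, an uncoupling protein relative of muscle, was at 49.9, 64.4, 41.5 and 55.5 CPM against 39.9, 17.3 and 37.2 CPM, and its log2 fold change was -0.75 (edgeR adjusted p = 0.325). Oma1, a protease of the inner membrane, differed by -0.19 on the log2 scale (edgeR adjusted p = 0.467).

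Upstream sequences were examined because the nuclear genes of the chain are known to share binding sites for the nuclear respiratory factors. Promoter windows from RefSeq (GRCm38.p6), 250 bases before to 50 bases after the start, were matched for 33 of the 40 genes. Those with no entry included Sdhc, Cox6a2, Ndufs1, Ndufaf6, Uqcrc2 and Cox4i2. In these windows 4 motifs were searched on both strands, GCGCANGCG for NRF1, CCGGAAGT for GABPA, TCAAGGTCA for ERR alpha and AAGATGGC for YY1. At least 1 of them was present in 16 of the 33 genes. A match is a run of letters and not a measured site.

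The NRF1 letters were found in 9 of 33 genes (27.3%), against 7.03% of the 27025 genes with a window and 12.3% of the tested genes. The windows below are on the strand of the gene, 5′ to 3′, with the match in capitals. They show the same core in genes of complexes I, IV and V and in assembly factors, at distances that differ from gene to gene.
Ndufa5, chr6:24527698-24527726, minus strand: tgtgtgagctGCGCAGGCGcaaatctacc
Ndufa8, chr2:36049329-36049357, minus strand: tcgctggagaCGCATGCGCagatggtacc
Ndufs5, chr4:123718266-123718294, minus strand: gctgcttgctGCGCAGGCGcagacccgct
Cox6a1, chr5:115349102-115349130, minus strand: caggaacgggGCGCATGCGcgctctcgct
Atp5c1, chr2:10080431-10080459, minus strand: ctgagctcccGCGCACGCGcactgagtcc
Atp5g3, chr2:73911295-73911323, minus strand: agccgcaccgCGCTTGCGCgcccagcccc
Atp5k, chr5:108434431-108434459, minus strand: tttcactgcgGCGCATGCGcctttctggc
Ndufaf4, chr4:24897960-24897988, plus strand: ccagatgtctGCGCATGCGcctgtgcgga
Ndufaf5, chr2:140170652-140170680, plus strand: agtcccgttgGCGCATGCGcctaatagaa

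The YY1 letters were found in 5 of 33 genes (15.2%), against 3.19% of all genes with a window and 4.41% of the tested genes. In 4 of the 5, Ndufa3, Ndufa9, Ndufc1 and Atp5j2, the match began 22 to 29 bases after the start that the window uses. The motif contains the letters ATG, and its place relative to the start codon was not examined. These short stretches show the match in capitals with its flanks.
Ndufa3, chr7:3617385-3617412, plus strand: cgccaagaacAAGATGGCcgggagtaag
Ndufa9, chr6:126849098-126849125, minus strand: attgtgggagAAGATGGCggccgccgtc
Ndufc1, chr3:51408916-51408943, minus strand: cctgcggaacAAGATGGCgccgtccgta
Atp5j2, chr5:145191501-145191528, minus strand: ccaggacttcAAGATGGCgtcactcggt
Atp5pb, chr3:105959249-105959276, minus strand: tgtgcgagcgGCCATCTTgctcctgccc
The GABPA letters were in 2 of 33 genes, Ndufs3 and Uqcrh (6.06%, against 7.99% of the tested genes), and the ERR alpha letters in 1, Atp5g3 (3.03%, against 0.401%).

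Cox7a1 held none of the 4 motifs in its window. Its 250 bases before the start are shown because it is the gene with the smallest p-value, and they had a G and C content of 51.2%. Over the whole window it was 53.0% for Cox7a1, where the median was 59.0% for the 33 genes and 60.0% for the tested genes with a window.
Cox7a1, chr7:30183921-30184170, plus strand: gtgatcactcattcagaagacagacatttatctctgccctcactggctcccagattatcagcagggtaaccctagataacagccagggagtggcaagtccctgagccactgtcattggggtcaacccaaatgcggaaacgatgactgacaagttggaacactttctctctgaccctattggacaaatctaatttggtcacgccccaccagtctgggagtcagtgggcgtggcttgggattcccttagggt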

How the data were processed

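RNA sequencing counts of 4 control and 3 transferred hearts were used. The values deposited by the authors are counts for each gene, without normalization. Per the submitters' processing notes, the tools named are bcl2fastq 2.20.0.422, cutadapt 2.5, STAR 2.7.2b, featureCounts 1.6.4 and DESeq2 1.22.2, with build GRCm38.p6, and their settings are not given in the sources used here. Of the deposited values, 4.63% had a fractional part, so they were treated as estimated counts and rounded. Complete rows numbered 20343, and a last row that broke off was not used. Replicates were numbered in accession order, which only names the samples, and nothing in the labels beyond 1 mouse identifier per sample describes how they were taken.

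Genes were filtered with filterByExpr and scaled with TMM in edgeR 4.0.16 (R 4.3.3), and 7667 genes passed. The test was the quasi-likelihood test with robust estimation on all 7 hearts and no covariate, with Benjamini-Hochberg adjustment over all tested genes and a threshold of 0.05. Standard errors came from the F statistic, and 95% intervals from its degrees of freedom. A count of 3 corresponds to 0.119 to 0.183 CPM, which covers counting error only. Alternatives were other scalings and filters, DESeq2 1.42.0, limma-voom (limma 3.58.1), no robust estimation, the form of the mouse identifier as a covariate or a restriction, whole-count genes, leaving out each heart, leaving out genes under 10 CPM, Ndufa4 counted in complex I, and the Cox6a2 to Cox6a1 ratio in raw counts.

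The genes and lists were chosen with earlier results of these data known. Any of the 40 genes could be named, but 1 is not reported here by itself and enters only counts, sums and medians. Values in every heart were given for genes past the threshold, for the subunit of each complex with the smallest p-value or the highest level per kilobase, and for Cox4i2, Cox6a1, Cox6a2, Cox6b1, Cox6b2, Cox7a1, Cox8b and Ndufa4, and from each list the 3 genes with the smallest p-value were named. Ndufc1, Ndufc2, Ndufaf1, Thrsp, the pseudogenes and some subunits given by their fold change were added after their values were seen. The lists of other cell types were fixed with the design, and their counts are in the closing section.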

Additional observations from a re-analysis of the deposited data

Results flagged for a closer look

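The 4 control hearts were checked for a value far from the other 3 in 51 results, namely the log2 CPM of the 40 genes, the summed levels and the isoform shares and ratios. The check marks about 1 in 20 groups by chance, and 1 was marked. The log2 CPM of Atp5pb, the peripheral stalk subunit of ATP synthase, reached 11.63 in control heart 1, while the 3 others lay between 11.46 and 11.49. Groups of 3 hearts were not checked.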

How the results depend on the processing

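Across the refitted settings and the other definitions of the gene groups, 524 of the recomputed values kept their direction and their side of the threshold or, where there was no test, moved by less than the spread between hearts (counts by at most 1.5 times), 7 moved further, 15 reversed and 1 became stronger. With DESeq2, which called 250 genes in all, 1 of the 40 genes passed the threshold in place of 0, and it was the lower gene Cox7a1 (adjusted p = 0.0316). Under the other alternatives its adjusted p was 0.159 to 0.450. Over fits that left out 1 heart each, 0 to 0 of the 40 genes passed, but 4 of these 7 fits called no gene at all and the others called 1, 27 and 140. In these fits 0 to 1 were higher and 2 to 4 lower at an unadjusted p-value under 0.05, 21 to 34 had a negative sign and the median was -0.088 to -0.015. The lowest count of negative signs and the median nearest 0 came without transferred heart 3. With the identifier form as a covariate, and in the hearts with numeric identifiers alone, 0 of all tested genes passed, so a 0 among the 40 carries no information there. In the 5 hearts with numeric identifiers 1 gene was higher at an unadjusted p-value under 0.05. Among the 16 genes with whole counts 13 had a negative sign, where fewer genes were tested.

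Signs reversed for genes whose log2 fold change was near 0, and the cause was not tested. Leaving out 1 heart gave -0.030 to 0.084 for Atp5j2, -0.14 to 0.0057 for Cox6a1, -0.073 to 0.056 for Cox6b1, -0.21 to 0.017 for Cox8b, -0.034 to 0.076 for Ndufa5 and -0.14 to 0.032 for Sdhb. The median of complex II ranged from -0.14 to 0.00029 in these fits, that of complex III from -0.033 to 0.11 and that of complex V from -0.034 to 0.079. For complex III the gene with whole counts alone gave -0.040, and for complex V cardiomyocyte marker scaling gave -0.00075. Other fold changes kept their sign but moved by over 1.5 times without 1 heart, from 0.017 to 0.18 for Uqcrh (without transferred hearts 2 and 3), -0.29 to -0.071 for Atp5k (2 and 1), -0.16 to -0.0091 for Ndufa4 (2 and 1), -0.14 to -0.031 for Sdhc (2 and 3), 0.24 for Cox6b2 without transferred heart 3 to 0.76 without control heart 1, and 0.23 for Cox6a2 without transferred heart 3. Total count scaling gave 0.0069 for Cox6b1. The hearts with numeric identifiers gave 0.033 for Cox8b and -0.026 for Ndufa5, and cardiomyocyte marker scaling gave -0.0031 for Ndufa5. No paired analysis was possible because the sample titles share only the number 1 between the groups, and replicates were numbered in accession order. The number of animals limits the precision, and p-values measure only the spread between these animals.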

Other observations

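Markers of other cell types were summed in the same way, in CPM. Of 7 tested macrophage markers, 2 rose past the threshold of the edgeR test in transferred hearts, where 0.13% of all tested genes did. They were the complement gene C1qb and the mannose receptor gene Mrc1 (edgeR adjusted p = 0.0384 for each). Of 8 tested endothelial markers 1 fell past this threshold, the water channel gene Aqp1, where 0.104% of all tested genes did. Of the 8 endothelial markers 5 had a positive sign, and the median log2 fold change was 0.0033. Their sum was 3949 to 4521 in control and 3479 to 4158 in transferred hearts, and Aqp1 alone had a mean of 839 in control and 417 in transferred hearts. The 4 tested neutrophil markers summed to 7.60 to 11.0 in control and 11.1 to 249 in transferred hearts. None of them passed, and all 4 were higher at an unadjusted edgeR p-value under 0.05, against 7.17% of all tested genes. Transferred heart 2 stood apart, with S100a9, a calcium-binding protein gene of neutrophils, at 138 against 4.31 and 16.9 in transferred hearts 1 and 3. Control hearts had 2.46 to 5.38 for S100a9, so transferred heart 1 lay within their range. For 5 fibroblast markers the sums were 1560 to 2079 and 1442 to 1892, for 2 mural markers 5422 to 7180 and 5558 to 6271, and for 3 T cell markers of the mouse 29.6 to 38.1 and 28.1 to 35.2, with 0 past the threshold in each list. The single adipocyte marker tested and the single atrial marker tested, Nppa, did not pass, and the sums were 24.8 to 31.8 against 22.4 to 34.1 and 2187 to 3830 against 946 to 4152. The 3 tested skeletal muscle markers summed to 4.52 to 5.55 in control and 3.49 to 4.50 in transferred hearts, far below the muscle forms of complex IV. The calls of C1qb, Mrc1 and Aqp1 were lost in every fit that called 0 genes in all, namely limma-voom, the identifier form as a covariate, the hearts with numeric identifiers alone, and the fits without control heart 1, 2 or 4 or without transferred heart 2. All 3 were also lost without control heart 3, and C1qb and Mrc1 without transferred heart 1. In the whole-count fit these 3 genes were not tested.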
